A study of Caenorhabditis elegans with 44 samples.

Results

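A pair of Caenorhabditis elegans lines was compared after 16 h on plates that held ethanol, the solvent of auxin, and no auxin. The 8 libraries are 4 of JTL621 and 4 of CA1199, out of 44 in the whole study, and they were taken by strain, treatment and time alone. JTL621, called HSF-1-AID here, carries hsf-1::aid::gfp on chromosome I, a fusion of the heat shock factor with an auxin-inducible degron and GFP. CA1199, called TIR1-only, is listed without that fusion. Shared by both lines are unc-119(ed3) on chromosome III and the insertion ieSi38 on IV, in which sun-1p drives TIR1::mRuby with the sun-1 3'UTR and which also holds Cbr-unc-119(+). The sun-1 promoter drives expression in the germline, and the labels give the germline as the tissue of TIR1. Hypochlorite-synchronised larvae had grown for 51 h at about 500 per plate, and about 120 young adults per condition were then picked onto the ethanol plates. The titles mark these animals NHS, which the series design gives as 20 °C without heat shock. The comparison bears on the fusion, the strain background and any loss of HSF-1 without auxin, which cannot be told apart in this design. Each line is 1 strain, and whether its 4 replicates were separate cultures is not given in the labels, so the p-values measure the spread between libraries.

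HSF-1 is the conserved transcription factor that binds heat shock elements and drives chaperone genes during heat stress. In growing and reproducing worms it also maintains chaperone transcripts at normal temperature, among them those of Hsp90, Hsc70, their co-chaperones and the CCT chaperonin that folds actin and tubulin. In the degron system TIR1 joins the tagged protein to a ubiquitin ligase when auxin is present, and the joined protein is degraded by the proteasome.

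Levels are CPM, reads scaled to library size, recovered from the deposited log2 values, and fold changes are HSF-1-AID over TIR1-only on the log2 scale with limma's moderated test. Depth was 38.6 to 57.7 M reads in the 8 libraries. The first principal component, with 37.8% of the variance, set the replicate 4 library of each strain apart from the other 6 and did not separate the strains. Summed markers of the germline, oocytes, sperm, intestine, muscle, neurons, cuticle, somatic gonad and embryo and the vitellogenins overlapped between the strains in all 10 lists. The germline sum ran from 13430 to 15220 CPM in HSF-1-AID and from 14060 to 16020 CPM in TIR1-only. Gene by gene, 16 of 18 germline markers and 20 of 21 muscle markers had a negative log2 fold change (51.7% of all genes did). Their medians were -0.07 and -0.08. In neuron and somatic gonad markers 10 of 16 and 8 of 14 were positive. Annotated rRNA took 1.53% to 1.84% of reads in HSF-1-AID and 2.02% to 3.23% in TIR1-only, without overlap. The part of the rRNA share in the differences below was not tested. The RNA came from whole animals, so fewer cells of a type and less RNA per cell cannot be told apart.

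Without auxin very few genes passed adjustment for a difference between the strains. Of 10173 genes tested, 3 passed an adjusted p of 0.05 (0.0295%), 0 higher and 3 lower in HSF-1-AID. They were hsf-1 itself, the subtelomeric gene cTel55X.1 and the low-level gene Y34F4.3. Without the TIR1-only libraries neither cTel55X.1 nor Y34F4.3 would have met the 1 CPM filter. Their place in the test thus rests on the strain where they are high. By limma 402 genes (3.95%) had an unadjusted p under 0.05, 227 higher and 175 lower. With voom weights on recovered reads the same 3 genes were called, 0 higher, and 435 had an unadjusted p under 0.05. Groups did not overlap in 1.52% of genes in the higher direction and 1.17% in the lower. The count of 3 became 0 when the 8 ethanol libraries were fitted alone, 1 with a prior of 0.5 reads, 13 with library quality weights, and 1 or 2 when any 1 of the 8 libraries was left out.

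The precision was high for genes of middle and high level. The 95% interval of the strain difference lay inside 1.5-fold in either direction for 8943 genes (87.9%) and inside 2-fold for 9916 (97.5%). Among the 5086 genes above the median level, 5044 (99.2%) lay inside 1.5-fold. In the lower part of the range 3899 of 5087 genes (76.6%) lay inside 1.5-fold, so larger differences in weakly expressed genes could have been missed. The median difference over all genes was 0.00 in log2 (-0.003 to 3 decimals). Scaling between libraries tends to hold such a median near 0, so it is not a result about the strains. On auxin, with no library in common, the same strains differed at 4490 of the 10173 genes (44.1%), 2397 higher (23.6%) and 2093 lower (20.6%).

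**Figure D1:**
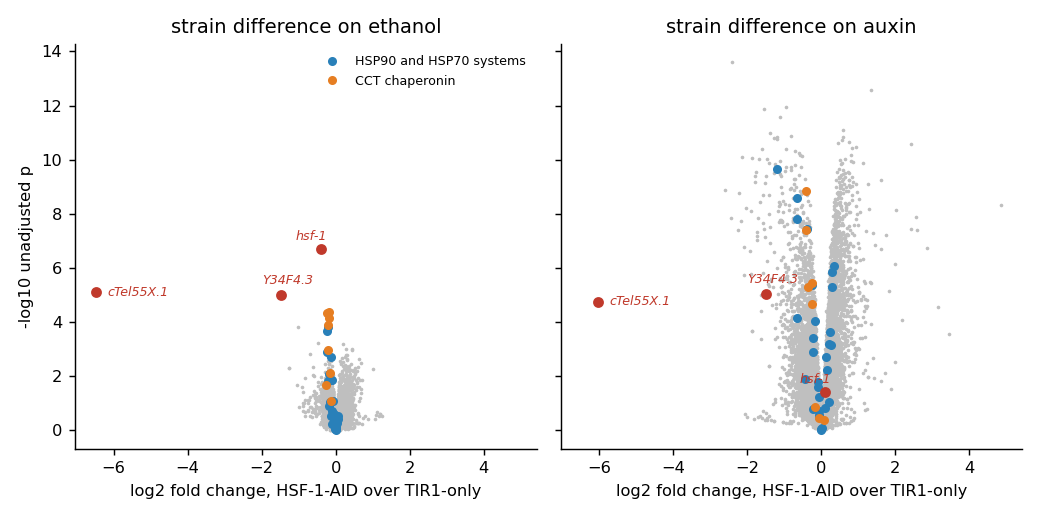
Strain difference at 16 h for every tested gene, as log2 fold change (x axis) against -log10 of the unadjusted p (y axis), on ethanol (left) and on auxin (right). On ethanol 3 genes passed adjustment and 5 of the 8 CCT subunits (orange) are among the 30 genes with the smallest p, all on the lower side, while on auxin 4490 genes passed.

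The transcript of hsf-1 was lower in the tagged line. The gene (WBGene00002004) lies on the minus strand of chromosome I from 11953507 to 11963085 in WBcel235. Its level was 55.7, 50.9, 47.6 and 50.5 CPM in HSF-1-AID replicates 1 to 4. In TIR1-only replicates 1 to 4 it was 64.3, 68.7, 69.5 and 69.1 CPM. Every HSF-1-AID library was below every TIR1-only library. The means were 51.2 ± 3.34 and 67.9 ± 2.45 CPM (SD, n = 4 each), a log2 fold change of -0.41 ± 0.0468 SE (95% interval -0.51 to -0.31, limma adjusted p = 0.00203). That is a change of -24.7% (95% interval -29.7% to -19.3%), and hsf-1 had the smallest p of all genes tested. The call was kept when any 1 library was left out (adjusted p from 4.14e-04 to 0.0171). It was lost when the 8 ethanol libraries were fitted alone, with the same fold change and an adjusted p of 0.0571. The fusion lies in this gene in 1 strain only, and its effect on how reads were counted to hsf-1 was not tested.

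On auxin the same transcript was not called. HSF-1-AID libraries held 70.9, 72.1, 71.0 and 69.3 CPM and TIR1-only libraries 66.5, 70.4, 63.4 and 63.3 CPM, which overlap. The strain difference there was 0.10 in log2 (adjusted p = 0.0792), and it differed from that on ethanol by 0.51 in log2 (95% interval 0.37 to 0.65, adjusted p = 4.75e-05). The strain difference in hsf-1 thus depended on treatment at 16 h.

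At the other times hsf-1 was not called on ethanol. At 8 h the HSF-1-AID libraries held 46.0, 51.3, 34.9 and 50.9 CPM and the TIR1-only libraries 44.5, 53.3, 44.4 and 52.9 CPM. These groups overlap, and the log2 fold change was -0.10 (95% interval -0.36 to 0.16, adjusted p = 1). At 24 h the levels were 58.3, 56.3 and 46.8 CPM against 63.8, 72.5 and 72.4 CPM, without overlap. The log2 fold change at 24 h was -0.38 (95% interval -0.57 to -0.18), close to that at 16 h in size, with a limma adjusted p of 1 and 0.265 with the replicate block. Whether the difference changed with time was not tested, since each time has its own normalisation.

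**Figure D2:**
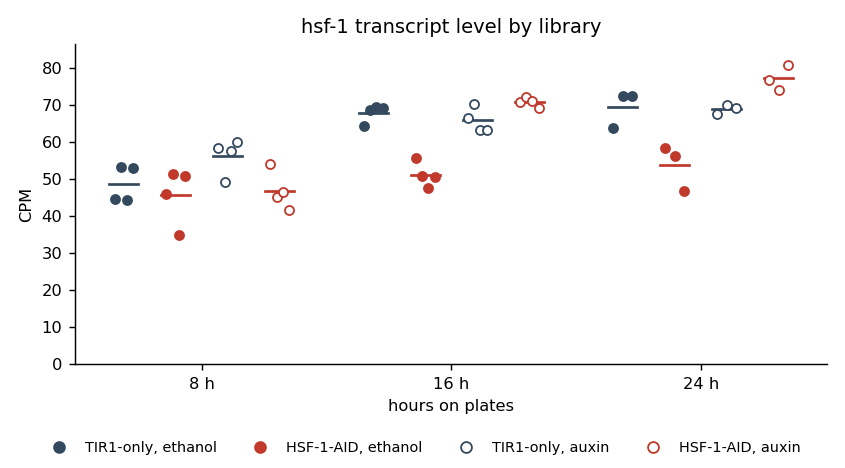
Level of hsf-1 in CPM (y axis) in each library at 8, 16 and 24 h, in 4 groups per time. Points are libraries, bars are group means, filled points are ethanol and open points auxin. At 16 h on ethanol all 4 HSF-1-AID libraries (47.6 to 55.7 CPM) lie below all TIR1-only libraries (64.3 to 69.5 CPM).

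Other genes used in the constructs did not pass. The unc-119 transcript, mutant in both lines, was at 2.47, 2.31, 2.45 and 2.45 CPM in HSF-1-AID and 2.13, 2.45, 2.33 and 1.92 CPM in TIR1-only (log2 fold change 0.14, 95% interval -0.15 to 0.42, adjusted p = 0.97). The transcript of sun-1, a meiotic nuclear envelope protein whose promoter and 3'UTR are used in the shared insertion, was at 130, 127, 122 and 118 CPM against 131, 136, 132 and 128 CPM (-0.08, 95% interval -0.166 to -0.003, adjusted p = 0.97). Genes around the edited locus were tested too. Of 29 tested genes within 100 kb of hsf-1, 0 were called by limma and 0 reached an unadjusted p under 0.05. Voom called 0 of them. Their median log2 fold change was 0.01, with a range from -0.33 to 0.14. The lowest value was that of R06C1.6, the gene beside hsf-1 at -0.4 kb (limma unadjusted p = 0.185). On the whole of chromosome I 60 of 1795 genes (3.34%) reached that level, against 3.95% of all genes.

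Cytosolic chaperones, the check for HSF-1 activity, had mostly negative strain differences of small size, and none passed adjustment. Of 38 tested members of the Hsp90 system, the Hsp70 system and CCT, 0 were called by limma and 0 with voom weights, while 15 were lower and 0 higher at an unadjusted p under 0.05. Over all genes 1.72% were lower at that level. The strains did not overlap in 13 of the 38, all lower in HSF-1-AID, against 1.17% of all genes in that direction. The median of the 38 was -0.09 in log2, 30 were negative (51.7% of all genes were), and all 38 intervals lay inside 1.5-fold. Medians of like size stood in ribosomal protein genes (-0.10), muscle markers (-0.08) and oocyte genes (-0.07), which had 0 genes lower at that unadjusted level. Germline markers had a median of -0.07, with 1 of 18 lower at that level. Summed over the 38, the strains overlapped, at 18300 to 21140 CPM in HSF-1-AID and 20590 to 23020 CPM in TIR1-only. Among the 30 genes with the smallest p in the whole table, 9 were members of these lists and 5 were CCT subunits. With library quality weights 8 of the 38 passed, all lower, and without HSF-1-AID replicate 1 it was 1 (cct-5).

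The CCT chaperonin, a double ring of 8 different subunits, stood at the front of this group. All 8 subunits had a negative log2 fold change, from -0.27 for cct-7 to -0.14 for cct-8, and the median was -0.20. At an unadjusted p under 0.05 stood 7 of them, against 1.72% of all genes in the lower direction. In cct-5 the HSF-1-AID libraries held 612, 564, 541 and 564 CPM and the TIR1-only libraries 679, 675, 663 and 662 CPM. No library of either strain crossed into the range of the other. The log2 fold change of cct-5 was -0.23 (95% interval -0.32 to -0.14, limma adjusted p = 0.0927), a change of -15%.

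For cct-3 the levels were 152, 145, 147 and 148 CPM in HSF-1-AID and 164, 172, 168 and 167 CPM in TIR1-only. The gap was small beside the level but larger than the spread in either group (log2 fold change -0.18, 95% interval -0.25 to -0.11, adjusted p = 0.0927). Next came cct-4 at -0.19 (adjusted p = 0.115), cct-1 at -0.21 (adjusted p = 0.169) and cct-6 at -0.20 (adjusted p = 0.638). The strains failed to overlap in 7 of the 8 subunits, the exception being cct-7, against 1.17% of all genes in the lower direction. Summed over the subunits, CCT transcripts were at 3718, 3538, 3332 and 3429 CPM in HSF-1-AID and at 4015, 4201, 4037 and 3869 CPM in TIR1-only, again without overlap.

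In the Hsp90 system all 10 members were negative, with a median of -0.15, 4 of them at an unadjusted p under 0.05 and 3 without overlap. Over all genes 51.7% were negative, 1.72% were lower at that level and 1.17% were lower without overlap. The Hsp90 gene hsp-90 (chromosome V) was at 5746, 5514, 4705 and 4893 CPM in HSF-1-AID and 5630, 6153, 5889 and 5477 CPM in TIR1-only. These ranges overlap, and the log2 fold change was -0.15 (95% interval -0.33 to 0.03, adjusted p = 0.97). The co-chaperone gene sti-1, which links Hsp90 and Hsp70, was at 275, 268, 243 and 243 CPM against 294, 319, 316 and 292 CPM. Its groups did not overlap (-0.25, 95% interval -0.38 to -0.11, adjusted p = 0.698). The activator of the Hsp90 ATPase, ahsa-1, was at -0.19 (95% interval -0.28 to -0.11, adjusted p = 0.169) and the immunophilin gene fkb-6 at -0.23 (95% interval -0.33 to -0.13, adjusted p = 0.191), both without overlap. The p23 homologue daf-41 was at -0.14 and the kinase co-chaperone cdc-37 at -0.19 (adjusted p = 0.97 each). The myosin chaperone unc-45, the phosphatase pph-5, sgt-1 and the ubiquitin ligase chn-1 lay between -0.08 and -0.01, the narrow end of the list.

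The Hsp70 system was more mixed, with 12 of 20 members negative, a median of -0.02, 4 lower at an unadjusted p under 0.05 and 3 without overlap. The shares over all genes were 51.7% negative, 1.72% lower at that level and 1.17% lower without overlap. The Hsc70 gene hsp-1 was at 6093, 5990, 4979 and 5231 CPM in HSF-1-AID and 5844, 6644, 6362 and 5589 CPM in TIR1-only (log2 fold change -0.13, 95% interval -0.39 to 0.12, adjusted p = 0.97). The groups overlap widely. Its Hsp40 partner dnj-13 was at 223, 234, 228 and 226 CPM against 253, 266, 266 and 241 CPM, without overlap (-0.17, 95% interval -0.29 to -0.05, adjusted p = 0.97). A further pair of Hsp40 genes, dnj-19 (-0.13) and dnj-12 (-0.10), did not overlap either. The exchange factor hsp-110 was at -0.09 (95% interval -0.23 to 0.05, adjusted p = 0.97), and the Hsp70-interacting protein gene hip-1 at -0.19.

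On auxin hsp-90 was at 2329, 2426, 2413 and 2316 CPM in HSF-1-AID and 5558, 5945, 5069 and 5236 CPM in TIR1-only, a clear separation. Its strain difference was -1.20 on auxin (adjusted p = 4.77e-08), more negative than on ethanol (difference -1.05, 95% interval -1.298 to -0.793, adjusted p = 1.61e-05). The differences on auxin were -0.65 for hsp-1, -0.66 for sti-1 and -0.67 for dnj-13, each called (adjusted p = 4.79e-04, 7.56e-07 and 2.18e-07), and hsp-110 was called higher at 0.27 (adjusted p = 0.00312). All 4 differed between auxin and ethanol (adjusted p = 0.033, 0.0026, 2.66e-04 and 0.00814).

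The CCT subunits had similar medians under both treatments. On auxin 5 of the 8 subunits were called lower and 0 higher, with a median of -0.25, against -0.20 on ethanol. The difference between treatments passed for 2 of 8 subunits (29.6% of all genes passed), cct-3 (-0.22, adjusted p = 0.00187) and cct-5 (-0.18, adjusted p = 0.032). For the other 6 it did not pass, with adjusted p from 0.0589 for cct-2 to 0.638 for cct-1, which does not show that they are the same. In the Hsp90 system 3 members were called higher and 5 lower on auxin, and in the Hsp70 system 5 higher and 6 lower. Over all genes 23.6% were called higher and 20.6% lower.

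**Figure D3:**
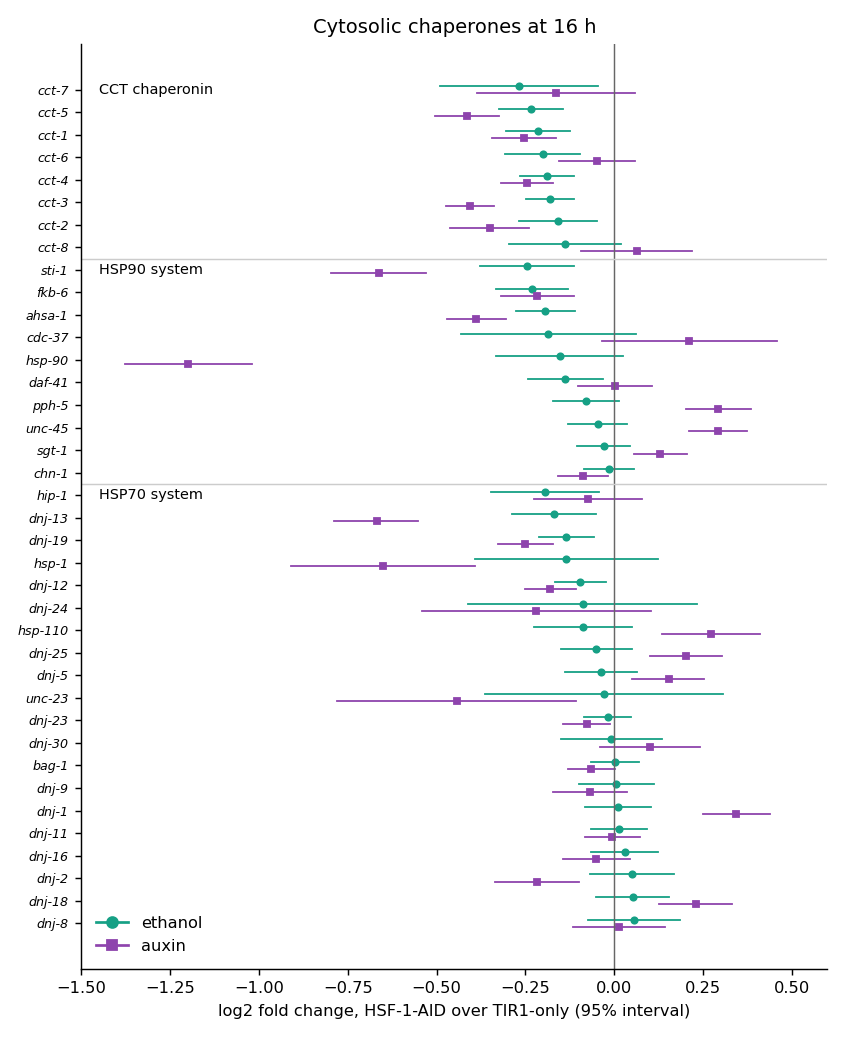
Strain difference of the 38 cytosolic chaperones at 16 h as log2 fold change with 95% interval (x axis), on ethanol (circles) and on auxin (squares), grouped by system (y axis). On ethanol all CCT and Hsp90 system members lie left of 0 and every interval is inside 1.5-fold, while on auxin hsp-90 lies at -1.20.

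Of 19 listed inducible and small heat shock genes 12 were tested, and 0 passed by limma or voom. Identical copies of hsp-16.1 and of hsp-16.48 are among the 12. With each pair counted once, 10 were tested, 2 were lower and 1 higher at an unadjusted p under 0.05 (1.72% and 2.23% of all genes), and 8 were negative, with a median of -0.24. The small heat shock gene sip-1 was abundant, at 1902 to 2536 CPM in HSF-1-AID and 2163 to 2651 CPM in TIR1-only, which overlap (-0.11, 95% interval -0.37 to 0.15, adjusted p = 0.97). Genes of the hsp-16 and F44E5 loci were below 5 CPM in every ethanol library, and their intervals were wide. The small heat shock gene hsp-16.1, counted on a pair of near-identical copies with the same values, was at 0.51, 0.67, 1.09 and 0.51 CPM in HSF-1-AID and 2.97, 1.72, 1.41 and 1.07 CPM in TIR1-only. The groups touch at 1.09 and 1.07 CPM (log2 fold change -1.27, 95% interval -2.11 to -0.44, adjusted p = 0.97). At 8 h hsp-16.1 was at 0.139 to 0.646 CPM against 0.844 to 1.76 CPM (-1.55, adjusted p = 1), and its neighbour hsp-16.48 at 0.278 to 0.484 CPM against 1.14 to 1.85 CPM (-1.73, adjusted p = 0.106), without overlap in either gene. At 8 h no HSF-1-AID ethanol library reached 1 CPM in either gene, so both met the 1 CPM filter there through other libraries. In hsp-16.1 at 16 h only replicate 3 of HSF-1-AID on ethanol reached it. At 24 h both genes overlapped, and at 16 h hsp-16.48 overlapped too. The small heat shock gene hsp-17 was at -0.33 and the Hsp70 genes F44E5.4 and F44E5.5 at -0.32 and -0.27 at 16 h (adjusted p = 0.97 each).

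Chaperones of other compartments stayed close to 0. In 22 tested ER chaperones 0 were called and 1 was lower at the unadjusted level, with a median of 0.02, and the BiP genes hsp-4 and hsp-3 were at 0.02 and 0.01. In 14 mitochondrial chaperones and proteases 0 were called and 0 reached that level, with hsp-6 at 0.08 and hsp-60 at -0.15. All of these 36 intervals lay inside 1.5-fold. Of the 6 prefoldin subunits, which pass nascent actin and tubulin to CCT, pfd-1 was at 0.14 and pfd-5 at -0.12, with a median of -0.05. Among 11 genes of HSF-1 and its regulators only hsf-1 was called, and the inhibitor hsb-1 was at -0.13 (95% interval -0.29 to 0.02, adjusted p = 0.97).

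The second call, cTel55X.1, separated the strains almost completely. This protein-coding gene is the last annotated gene at the right end of chromosome X (WBGene00007068, 17714961 to 17718726, plus strand). HSF-1-AID replicates 1 to 3 held 0 reads and replicate 4 held 44 reads (0.724 CPM), while TIR1-only libraries were at 7.55, 8.59, 8.98 and 8.5 CPM. A count of 0 allows up to 3 reads, so replicates 1 to 3 were at least 110-fold, 130-fold and 121-fold lower than the TIR1-only mean. Replicate 4 was at 8.61% of that mean (95% exact Poisson interval 6.26% to 11.6%, counting error only). The limma adjusted p was 0.0326, and it exceeded 0.05 when any library other than HSF-1-AID replicate 4 was left out, with a range from 0.00357 without that library to 0.177.

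The pattern was the same in libraries that took no part in this contrast. On auxin at 16 h HSF-1-AID replicates 1 to 3 again held 0 reads and replicate 4 58 reads, and TIR1-only libraries were at 6.67 to 7.91 CPM. At 8 h replicate 4 held 39 reads on ethanol and 43 on auxin, and the other 6 HSF-1-AID libraries held 0. At 24 h all 6 HSF-1-AID libraries held 0 reads. On ethanol the gene was called at 8 h (adjusted p = 0.0156) and at 24 h (adjusted p = 1.07e-08) and was the only gene called at each of these times. It was also the only gene of 9842 tested at all 3 times whose strains did not overlap in any of the 6 blocks of time and treatment.

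The next gene inward on X, H11L12.1 (WBGene00019189, 17710285 to 17711698, minus strand), had a negative difference that did not pass. It was at 6.30, 5.28, 4.77 and 5.61 CPM in HSF-1-AID and 10.9, 14.5, 11.1 and 8.48 CPM in TIR1-only, which do not overlap. The log2 fold change was -1.01 (95% interval -1.445 to -0.576, adjusted p = 0.169), and without the libraries numbered 4 it passed (-1.15, adjusted p = 0.00401). It was at -0.96 at 8 h and -0.92 at 24 h on ethanol (adjusted p = 1 each; 0.0103 at 24 h with the replicate block) and was called on auxin at 16 h (-0.65, adjusted p = 0.0176). Further inward the difference ended, with cgt-2 at 0.23 and T23E7.2 at -0.07 (adjusted p = 0.97 each).

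Y34F4.3 (WBGene00021338, chromosome III, 1012166 to 1016180, minus strand) is a protein-coding gene near the low end of the tested range. It was at 0.663, 0.605, 0.556 and 0.494 CPM in HSF-1-AID and 1.6, 1.8, 2.22 and 1.32 CPM in TIR1-only. The groups did not overlap (log2 fold change -1.49 ± 0.233 SE, 95% interval -1.986 to -0.997, adjusted p = 0.0326). The gene met the 1 CPM filter only through TIR1-only libraries, so it was tested only because it is high there. The call was lost when any 1 ethanol library was left out (adjusted p from 0.0518 to 0.185). On auxin it was at 0.393 to 0.912 CPM against 1.27 to 1.97 CPM (-1.5, adjusted p = 9.4e-05). It was analysed at 16 h only.

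The ethanol contrasts at 8 h and 24 h also had few calls, but they were less precise than that at 16 h. The confidence interval of the strain difference lay inside 1.5-fold in either direction for 69.1% of genes at 8 h and 70.2% at 24 h. At 16 h it did so for 87.9%. The low counts at 8 h and 24 h thus do not show that the strains differed as little there as at 16 h. At 8 h 1 of 10971 genes passed (0.00911%, 101 or 0.921% at an unadjusted p under 0.05) and at 24 h 1 of 10411 (0.00961%, 187 or 1.8% at that level), both cTel55X.1 and both lower. At 24 h, where replicate numbers were taken to pair the libraries, 7 passed with the replicate block (0.0672%), 3 higher and 4 lower. The additional 6 were sdc-3, the annotated pseudogene WBGene00007721 beside it on chromosome V, C27C7.1, T10D4.6, C55C3.3 and H11L12.1.

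Their behaviour at 16 h differed. The dosage compensation gene sdc-3 was at 23.4, 22.7, 24.3 and 22.7 CPM in HSF-1-AID and 23.1, 27.1, 25.2 and 22.8 CPM in TIR1-only at 16 h, which overlap (-0.07, 95% interval -0.32 to 0.17, adjusted p = 0.97). At 24 h it was at 46.7, 89.9 and 65.5 CPM against 20.8, 34.7 and 33.3 CPM, and at 8 h at 56.2, 84.7, 48.2 and 20.8 CPM against 19.6, 25.5, 18.7 and 19.8 CPM. So the 3 HSF-1-AID ethanol libraries of replicates 1 to 3 were high at 8 h and 24 h, and replicate 4 at 8 h and all 4 at 16 h were not. The labels give the 16 h libraries and those of 8 h replicate 4 library numbers from 97 to 118 and all others from 25 to 96. What these numbers stand for is not stated, and their part in the sdc-3 level was not tested. At 16 h WBGene00007721 (-0.19) and C55C3.3 (0.17) also overlapped between the strains. In both genes HSF-1-AID replicate 4 on ethanol at 8 h stood apart from replicates 1 to 3. C55C3.3 was at 5.47 CPM there against 1.08 to 1.99 CPM, and WBGene00007721 at 1.26 CPM against 2.99 to 4.28 CPM.

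C27C7.1, on chromosome I at -512.8 kb from hsf-1, had a positive difference at each time. At 16 h it was at 193, 164, 155 and 135 CPM in HSF-1-AID and 113, 128, 117 and 85 CPM in TIR1-only, without overlap. The log2 fold change was 0.55 (95% interval 0.13 to 0.97, adjusted p = 0.97), beside 0.74 at 8 h and 0.62 at 24 h (adjusted p = 1 each; 3.11e-04 at 24 h with the replicate block). On auxin at 16 h it was called higher (0.99, adjusted p = 8.08e-04). T10D4.6 on chromosome II was negative at every time on ethanol, at -0.91, -0.58 and -1.08 for 8, 16 and 24 h (adjusted p = 1, 0.97 and 1; 0.00145 at 24 h with the replicate block), and did not overlap at 16 h. Of 9842 genes tested at all times, 5 had the same direction with an unadjusted p under 0.05 at each time on ethanol, namely cTel55X.1, H11L12.1, T10D4.6, the peroxisomal oxidase gene acox-3 and F49E12.10.

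**Figure D4:**
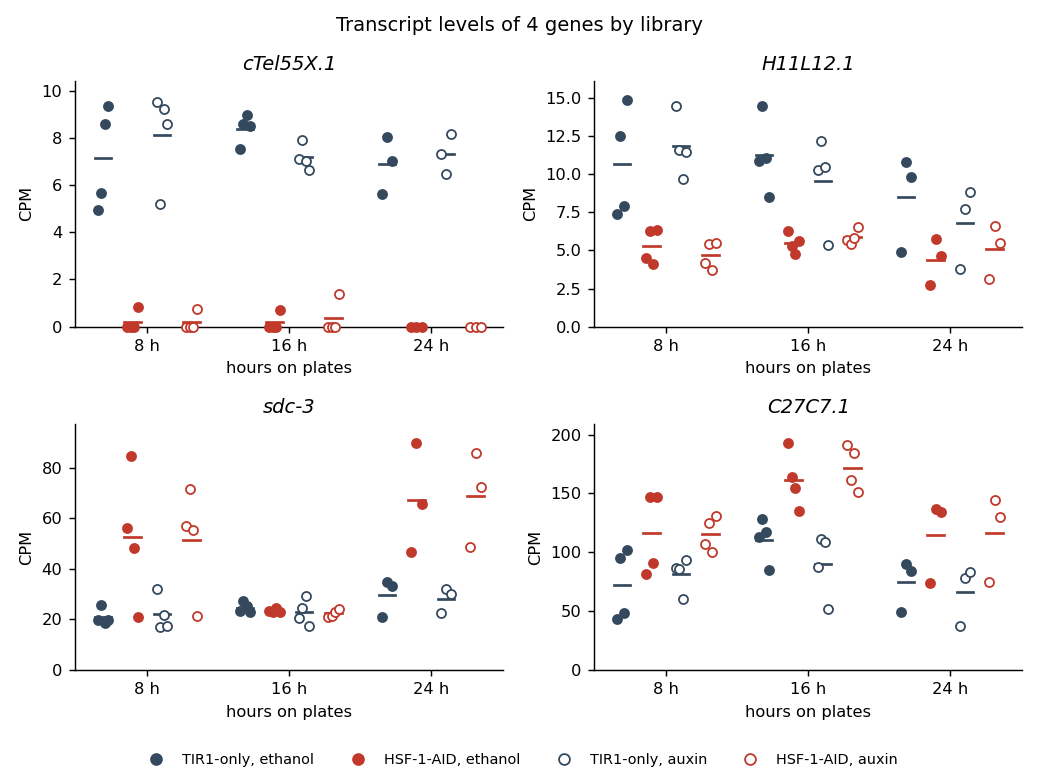
Levels in CPM (y axes) of cTel55X.1, H11L12.1, sdc-3 and C27C7.1 in each library at 8, 16 and 24 h. Points are libraries, bars are group means, filled points are ethanol and open points auxin. For cTel55X.1 all HSF-1-AID libraries lie at 0 except those numbered 4, and sdc-3 lies at 46.7 to 89.9 CPM in HSF-1-AID on ethanol at 24 h and at 22.7 to 24.3 CPM at 16 h.

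Of the 38 cytosolic chaperones 26 were negative on ethanol at 8 h and 27 at 24 h (47.9% and 51.6% of all genes), with medians of -0.05 and -0.06. The CCT subunits had medians of -0.09 at 8 h (7 of 8 negative) and -0.14 at 24 h (8 of 8 negative), with 0 called at each time by limma and 0 and 1 at an unadjusted p under 0.05. Summed CCT transcripts overlapped at 8 h, from 3121 to 3790 CPM in HSF-1-AID and from 3320 to 3965 CPM in TIR1-only. At 24 h they did not, at 3417 to 3660 CPM against 3827 to 4173 CPM. The hsp-90 difference was -0.10 at 8 h (95% interval -0.35 to 0.16) and -0.06 at 24 h (95% interval -0.34 to 0.23), with an adjusted p of 1 at both.

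Other gene groups showed 0 calls by limma on ethanol at 16 h, with small common shifts in some. All 80 ribosomal protein genes tested were negative, with a median of -0.10 and 0 at an unadjusted p under 0.05, and all 31 proteasome subunits were negative, with a median of -0.06 and 2 at that level. Over all genes on ethanol 51.7% were negative and 1.72% were lower at the unadjusted level. On auxin the 31 proteasome subunits were all called higher, with a median of 0.48, against 23.6% of all genes. The difference between treatments passed for all 31, against 29.6% of all genes. Oocyte and eggshell genes were mostly negative (42 of 44, median -0.07, 0 at the unadjusted level), and so were cuticle collagens (56 of 62, median -0.12, 4 lower at that level). Of the meiotic genes 22 of 49 were negative, with a median of 0.00 and 1 lower at that level. Detoxification genes of the cyp, ugt, gst, dhs and sdr families were mostly positive (91 of 129, median 0.08, 12 higher and 3 lower at an unadjusted p under 0.05), and so were F-box, MATH and BTB genes (105 of 138, 0.09, 6 higher and 1 lower). The shares over all genes were 2.23% higher and 1.72% lower. The germline RNA silencing gene simr-1 had the 10th smallest p, at 146, 148, 145 and 141 CPM against 164, 167, 153 and 165 CPM (-0.16, 95% interval -0.23 to -0.09, adjusted p = 0.169).

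Transcripts of the mitochondrial genome, a group chosen after its values were seen, all had positive differences and 0 were called by limma. The median of the 13 tested genes was 0.41. At an unadjusted p under 0.05 stood 12 of them, against 2.23% of all genes in that direction. Summed over the 11 protein genes the level was 2309, 2447, 3748 and 2993 CPM in HSF-1-AID and 2216, 2211, 1985 and 2323 CPM in TIR1-only. Replicate 1 of HSF-1-AID lies within the TIR1-only range and replicates 2 to 4 lie above it. Of the 11 genes 5 did not overlap, against 1.52% of all genes in that direction. COX3, a subunit of cytochrome oxidase, was at 262, 290, 450 and 350 CPM against 223, 235, 214 and 288 CPM (0.47, 95% interval 0.08 to 0.87, adjusted p = 0.97). The direction varied between blocks, with medians of -0.77 on auxin at 16 h, -0.23 on ethanol at 8 h and 0.51 on ethanol at 24 h. On auxin at 16 h 11 of 13 were called lower, against 20.6% of all genes. Nuclear genes of oxidative phosphorylation had a median of -0.05 with 43 of 49 negative and 0 called. The rRNA share given above includes both mitochondrial rRNA genes among its 6.

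**Figure D5:**
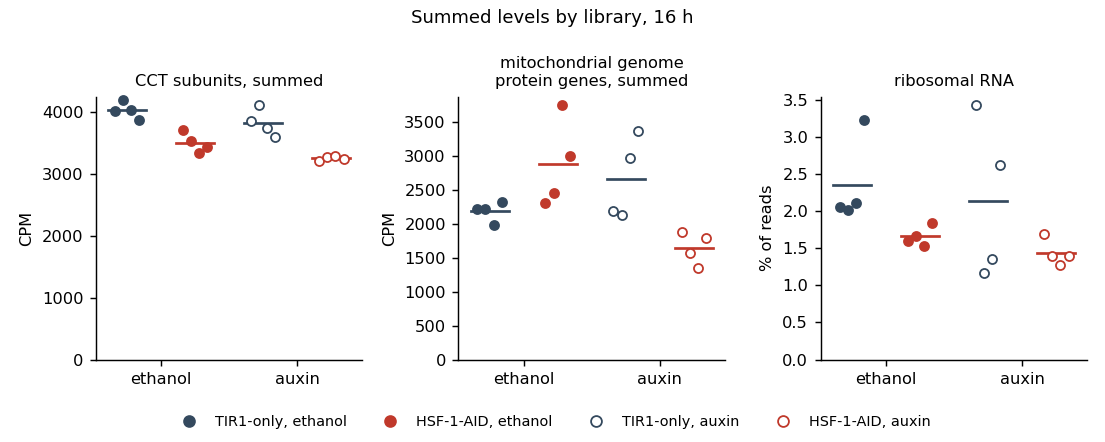
Summed CCT transcripts (CPM), summed protein-coding transcripts of the mitochondrial genome (CPM) and the rRNA share (% of reads) in each 16 h library, by treatment (x axis). Points are libraries, bars are group means, filled points are ethanol and open points auxin. On ethanol the CCT sum is at 3332 to 3718 CPM in HSF-1-AID and 3869 to 4201 CPM in TIR1-only.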

How the data were processed

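Per the labels' protocols, RNA was extracted with Trizol, enriched for poly(A) and made into directional libraries. STAR, featureCounts and edgeR, and the builds WBcel235 and ce11, are named by the authors, per the submitters' processing notes. Their roles and versions, the annotation, the strand setting and the treatment of multi-mapping reads are not given in the sources used here. The deposited tables, 1 per time, hold log2 values per library. These were read as log2 CPM with a prior count of 2 reads, since removing that offset left whole reads for 100% of values (tolerance 0.05 of a read), and all CPM here were computed from them. Of 11430 identifiers, 11425 were matched to Ensembl 115, whose build is that of the notes. Near-identical gene copies can share reads.

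The log2 values were fitted with limma 3.58.1 (R 4.3.3, trend) as 1 model per time over its 4 groups. Genes needed 1 CPM in as many libraries as the smallest group holds. Tests were two-sided and adjusted by Benjamini-Hochberg over all tested genes, with a threshold of 0.05. Named were hsf-1, unc-119, sun-1, 5 main chaperones, the 8 largest called genes each way above the median level without overlap, every called cytosolic chaperone, up to 2 called members of each other list, the 5 largest each way called at all 3 times, up to 5 each way under 0.1 CPM in 1 group and above 1 CPM in the other (0 found), and called genes within 100 kb of hsf-1 (hsf-1 alone). Other genes named, and Y34F4.3, were chosen after their values were seen. The members and the lists were chosen with earlier results of these data known. At 24 h same-numbered libraries deviated together (correlations 0.466, 0.258 and 0.349), so the numbers were taken to pair them. That choice was made from the same values that were then tested. Some same-numbered libraries also deviated together at 8 h and 16 h (correlations up to 0.739 and 0.611). No replicates were copies (chi-square per gene at least 5.01). At these depths the spread between libraries, not counting error, sets the precision except for genes of few reads. The authors' deposited fold-change tables were not used here.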

Additional observations from a re-analysis of the deposited data

Results flagged for a closer look

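Chance sets about 1 in 20 groups of 4 libraries apart by the rule used, a wide gap to the nearest library relative to the range of the group (Dixon). On ethanol at 16 h it singled out hsf-1 in TIR1-only replicate 1 (64.3 CPM), unc-119 in HSF-1-AID replicate 2 (2.31 CPM) and cTel55X.1 in HSF-1-AID replicate 4 (0.724 CPM). It also singled out ahsa-1 in HSF-1-AID replicate 3 (269 CPM) and in TIR1-only replicate 2 (335 CPM).

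The strain difference on auxin differed from that on ethanol at 16 h, by limma's test of the difference, for 10 of the named genes. Over all genes 29.6% passed that test. In log2 the auxin value exceeded the ethanol value by 0.51 for hsf-1 and 0.36 for hsp-110. It was more negative by these differences in hsp-90 (-1.05), hsp-1 (-0.52), dnj-13 (-0.50) and sti-1 (-0.42). The same held for cct-3 (-0.22), ahsa-1 (-0.19), cct-5 (-0.18) and simr-1 (-0.18).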

How the results depend on the processing

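Of 423 fold changes under alternatives, over 25 results, 0 reversed and 391 kept their side of the threshold. Of 98 counts of genes under alternatives, over 6 results, 63 were within 1.5 times. For calls on ethanol at 16 h (3 genes, 2 beyond 1.5-fold, 0 chaperones), the ethanol libraries alone gave 0 genes and 0 beyond 1.5-fold, with hsf-1 at -0.41 and an adjusted p of 0.0571. A prior of 0.5 reads gave 1 and 0, a minimum of 5 CPM gave 1 beyond 1.5-fold, and library quality weights gave 13, 4 and 8 chaperones. Leaving out 1 library gave 1 to 2 genes, 0 to 1 beyond 1.5-fold and 0 to 1 chaperones, with hsf-1 between -0.45 and -0.38. The 8 h count of 1 was 0 with the ethanol libraries alone, the prior of 0.5 or the weights, and 0 to 1 without 1 library. The 24 h count of 1 was 2 with weights, 7 with the replicate block and 1 without any 1 library. The auxin count ran from 3856 to 4802. The cause of these changes was not tested. At 16 h and 8 h same-numbered libraries did not all deviate together (lowest correlations -0.199 and 0.046), and the replicate block left the counts at 3 and 1, so it moved the 24 h count only. Voom weights and leaving out the libraries numbered 4 were added after seeing the data. The edgeR, DESeq2 and TMM alternatives, planned for deposited counts, were not run. Of count-based fits only voom was run, on the recovered reads, and median centring stood in for TMM. The ethanol libraries alone cannot give the auxin contrast. Depth limits statements on genes of few reads, such as Y34F4.3 and hsp-16.1.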
